A study of Mus musculus with 6 samples.

Results

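The SIBLING genes encode the small integrin-binding ligand, N-linked glycoproteins, a family of acidic phosphoproteins of bone and tooth matrix. They were taken here as 5 genes, *Ibsp*, *Dmp1*, *Mepe*, *Dspp* and *Spp1*, out of 48735 rows, the named genes and 2 unnamed features. A gene was read from the row that carries its name, which gave *Ibsp*, *Dmp1* and *Dspp*. Neither *Spp1* nor *Mepe* has a named row. *Spp1* was read from the unnamed feature that overlaps bases 104434000 to 104442000 of Chr. 5, as the choice of members asked. *Mepe* was read from the unnamed feature that covers it, a choice made after the tables had been opened. All 5 members are accounted for below, and 4 of them (all but *Dspp*) reached the mean of 1 FPKM (read fragments scaled to transcript length and library size) that was needed to enter the fit across all genes.

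The libraries were made from mice of the inbred Collaborative Cross strain CC016/GeniUnc, 3 labelled bone (femoral cortical bone with the marrow removed) and 3 labelled osteoblasts. They are called bone 1 to 3 and osteoblasts 1 to 3. The osteoblasts were grown from adherent marrow stromal cells for 8 days with dexamethasone at 10 nM, ascorbic acid at 50 µg/ml and beta-glycerophosphate at 10 mM. The paper took both bone and marrow cells from the femora of 3 mice, so libraries under different labels may share a mouse. No gene was targeted, and the labels give no age or sex and do not tie a library to a mouse. The p-values treat the 6 libraries as independent, which shared mice would break, and they speak only of these libraries. Cultures of this kind start from all adherent marrow cells and need not hold osteoblasts alone.

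SIBLING proteins are secreted into the osteoid, the unmineralized matrix, where their phosphorylated acidic stretches bind hydroxyapatite and their Arg-Gly-Asp motif binds integrins. *Ibsp* encodes bone sialoprotein, which nucleates mineral, and *Spp1* encodes osteopontin, which inhibits crystal growth and is also made by macrophages and osteoclasts. *Dmp1* (dentin matrix protein) and *Mepe* (matrix extracellular phosphoglycoprotein) are known as genes of osteocytes, the cells embedded in bone. *Dspp* encodes dentin sialophosphoprotein, the main SIBLING of the tooth.

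The 5 genes lie next to each other on the plus strand of Chr. 5. In RefSeq on GRCm38.p6, the build of the deposited tables, they are in the order *Dspp* (104170703 to 104180127), *Dmp1* (104197575 to 104214102), *Ibsp* (104299287 to 104311472), *Mepe* (104325329 to 104338611) and *Spp1* (104435111 to 104441053), and together they span 270351 bp. The deposited feature read as *Spp1* runs from 104435085 to 104497339, which is 56286 bp past the RefSeq end of *Spp1*, and it overlaps 1 other gene, *Pkd2* (polycystin 2). *Pkd2* also has a named row, whose FPKM was 1.02 to 2.91% of that of the *Spp1* feature. The feature read as *Mepe* runs from 104325329 to 104358336 and overlaps no other RefSeq gene, although it goes 19725 bp past the end of *Mepe*. The *Dmp1* row, from 104202613 to 104226001, likewise goes 11899 bp past its gene.

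Because the levels below are levels of transcripts, the 250 bases before the start site of each gene are shown for the 4 expressed members. They are RefSeq sequences on GRCm38.p6, plus strand, at chr5:104299037-104299286 (*Ibsp*), chr5:104202367-104202616 (*Dmp1*, the start nearest to the deposited row), chr5:104325079-104325328 (*Mepe*) and chr5:104434861-104435110 (*Spp1*). No promoter was printed for *Dspp*. Capitals mark matches, on either strand, to the core of the Runx motif, the CCAAT box and a string of 3 T and 3 A, and no matches overlap.
Ibsp promoter: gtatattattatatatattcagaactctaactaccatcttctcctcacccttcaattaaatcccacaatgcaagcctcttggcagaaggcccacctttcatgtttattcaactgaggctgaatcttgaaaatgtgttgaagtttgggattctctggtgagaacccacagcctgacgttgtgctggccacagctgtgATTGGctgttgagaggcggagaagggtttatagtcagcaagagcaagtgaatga
Dmp1 promoter: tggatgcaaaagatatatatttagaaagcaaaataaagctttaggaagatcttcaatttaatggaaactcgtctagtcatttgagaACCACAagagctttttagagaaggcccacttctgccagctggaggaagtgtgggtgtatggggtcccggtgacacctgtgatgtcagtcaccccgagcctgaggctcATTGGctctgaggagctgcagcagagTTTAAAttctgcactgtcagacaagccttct
Mepe promoter: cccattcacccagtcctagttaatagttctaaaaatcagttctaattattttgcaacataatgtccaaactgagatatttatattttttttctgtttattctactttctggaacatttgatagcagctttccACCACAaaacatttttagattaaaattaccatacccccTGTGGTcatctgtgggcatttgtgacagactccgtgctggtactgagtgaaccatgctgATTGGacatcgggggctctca
Spp1 promoter: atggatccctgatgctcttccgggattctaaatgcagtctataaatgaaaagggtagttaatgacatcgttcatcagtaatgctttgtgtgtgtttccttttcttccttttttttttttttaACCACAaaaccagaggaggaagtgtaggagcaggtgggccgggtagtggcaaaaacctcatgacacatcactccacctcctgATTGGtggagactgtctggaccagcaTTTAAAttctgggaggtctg
The CCAAT box was present in 4 of the 4 promoters, each time read as ATTGG, against 33.8% of the 32851 RefSeq promoters of the same length. Its first base lay at -54 in *Ibsp*, -57 in *Dmp1*, -21 in *Mepe* and -46 in *Spp1*, counted from the start site. The Runx core, searched as ACCACA and its reverse complement, was found in *Dmp1*, *Mepe* and *Spp1*, and in 14.0% of all promoters, with 2 copies in *Mepe*. TTTAAA was found in *Dmp1* and *Spp1*, at -31 and -20, and in 12.1% of all promoters. The E-box CACGTG was also searched on these promoters and was in 0 of the 4 and in 6.02% of all promoters. The strings were chosen with the sequences in view, and a match is a description of the letters and not of a bound site.

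The libraries differed in ways their labels do not describe. *Hbb-bt*, a hemoglobin gene of red cells, was above 1000 FPKM in bone replicate 3 (34838 FPKM), osteoblasts replicate 2 (34268 FPKM) and osteoblasts replicate 3 (48650 FPKM). It was 3.43 to 7.05 FPKM in the remaining 3. Of the markers listed for erythroid cells 5 of 8 have a named row, *Hbb-bt* among them. Their summed level was 3.53 to 7.29 FPKM in the latter 3 libraries and 35852 to 50353 FPKM in the former. *Hbb-bt* makes up most of each sum, so this gap follows from how the libraries were parted. *Alas2*, the next most abundant of the erythroid markers, was 0.0540 to 0.208 FPKM in the latter libraries and 732 to 910 FPKM in the former. For 8 of 8 neutrophil markers the sums were 0.497 to 5.79 and 14385 to 17371 FPKM, for 5 of 8 skeletal muscle markers 1.60 to 3.82 and 247 to 1107 FPKM, and for 5 of 6 chondrocyte markers 12.1 to 40.8 and 271 to 498 FPKM. Of the defining markers, *Elane*, *Mb*, *Tnnt3* and *Col9a1* were listed at 0 in each of bone replicates 1 and 2 and osteoblasts replicate 1, and they are named because of these values. So 2 of the 3 libraries labelled osteoblasts hold blood and muscle transcripts, and 2 of the 3 labelled bone hold almost none. By these markers bone replicate 3 was like osteoblasts replicates 2 and 3, and osteoblasts replicate 1 was like bone replicates 1 and 2. Whether labels were exchanged was not tested, and the sign of every difference between bone and osteoblasts below rests on the labels as deposited. The labels were kept, and the *Hbb-bt* state of each library is given beside its values. The implied depth was 13565300 to 22584000 aligned read pairs, and unnamed features took 71.5% of the FPKM in bone replicate 2 and 65.0% in osteoblasts replicate 1 against 27.4 to 30.7% elsewhere.

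*Ibsp* was among the most abundant named genes of 3 libraries. It measured 1278, 986 and 43.1 FPKM in bone 1 to 3, and 1004, 78.2 and 91.3 FPKM in osteoblasts 1 to 3. The 3 libraries with little *Hbb-bt* were the high ones, and the lowest of them was 10.8 times the highest of the other 3, while the ranges under the labels overlapped. Counted from the top of the 48735 named genes and features, *Ibsp* was at rank 29, 23 and 34 in the high libraries. In bone replicate 3 and osteoblasts replicates 2 and 3 it was at rank 1105, 596 and 514. Unnamed features other than those of *Spp1* and *Mepe* were left out of these ranks and of the percentages of genes given below. They took 71.5% of the FPKM in bone replicate 2 and 65.0% in osteoblasts replicate 1 when all were counted, so the ranks hold among named genes only. Under the labels the means were 769 ± 645 FPKM (SD, n = 3) for bone and 391 ± 531 FPKM (SD, n = 3) for osteoblasts.

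The *Spp1* feature was high in the same 3 libraries as *Ibsp*. Its FPKM was 1969, 996 and 94.6 in bone 1 to 3, and 797, 155 and 134 in osteoblasts 1 to 3. The smallest value in the libraries with little *Hbb-bt* was 5.13 times the largest in those with much of it, and the labels again overlapped. The feature sums several transcripts, and its coverage per FPKM was 0.383 to 0.511 of the ratio of a row with a single transcript, so its FPKM is not on the same footing as that of a single transcript. Its mean coverage per Gb of aligned bases was 755, 476 and 48.4 in the libraries labelled bone and 393, 78.1 and 67.3 in those labelled osteoblasts, with the same 3 libraries highest.

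*Dmp1* differed less among the libraries than *Ibsp* or the *Spp1* feature. It was measured at 104, 50.0 and 24.2 FPKM in bone 1 to 3 and at 127, 22.5 and 22.9 FPKM in osteoblasts 1 to 3. The highest library was 5.63 times the lowest, against 29.6 times for *Ibsp* and 20.8 times for the *Spp1* feature. The same 3 libraries were highest, although osteoblasts replicate 1 ranked above bone replicate 1. In the other 3 the values were 22.5 to 24.2 FPKM, above 82.5 to 84.6% of the genes with at least 1 FPKM.

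*Mepe* ran the other way. Its feature measured 5.59, 2.65 and 12.3 FPKM in bone 1 to 3, and 1.35, 25.1 and 16.9 FPKM in osteoblasts 1 to 3. Here the libraries rich in *Hbb-bt* were high, and the lowest of them had 2.20 times the FPKM of the highest library with little *Hbb-bt*. The lowest value, 1.35 FPKM in osteoblasts replicate 1, lies above the floor of 0.221 FPKM, the value of 3 pairs per kb in that library. *Mepe* was above 5.95 to 37.5% of the genes with at least 1 FPKM in the 3 low libraries and above 70.9 to 84.5% in the 3 high ones.

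*Dspp*, the tooth gene, was at or below the limit of detection. It was listed at 0 FPKM in bone replicates 2 and 3 and osteoblasts replicates 2 and 3, at 0.0137 FPKM in bone replicate 1 and at 0.0167 FPKM in osteoblasts replicate 1. Both of these have a coverage of 0.0341, which is 1.01 read pairs on the longest *Dspp* transcript of GENCODE vM1 (4431 bp). Since 3 read pairs on that transcript would give 0.0300 to 0.0499 FPKM, *Dspp* was not detectable at this depth in any of the 6 libraries. Of the other 4 markers of tooth-forming cells, *Ambn* and *Klk4* (ameloblastin and an enamel protease) were listed at 0 in each library, and *Enam* and *Amelx* (enamelin and amelogenin) were at most 0.109 FPKM. The family belongs to a wider group, the secretory calcium-binding phosphoproteins. Of 7 genes listed beside it for that group, 5 were below a mean of 1 FPKM and were not tested. The others, *Sparc* (osteonectin) and *Sparcl1*, are matricellular genes outside the group. They were tested with 0 called and a median difference between the labels of -0.04.

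**Figure D1:**
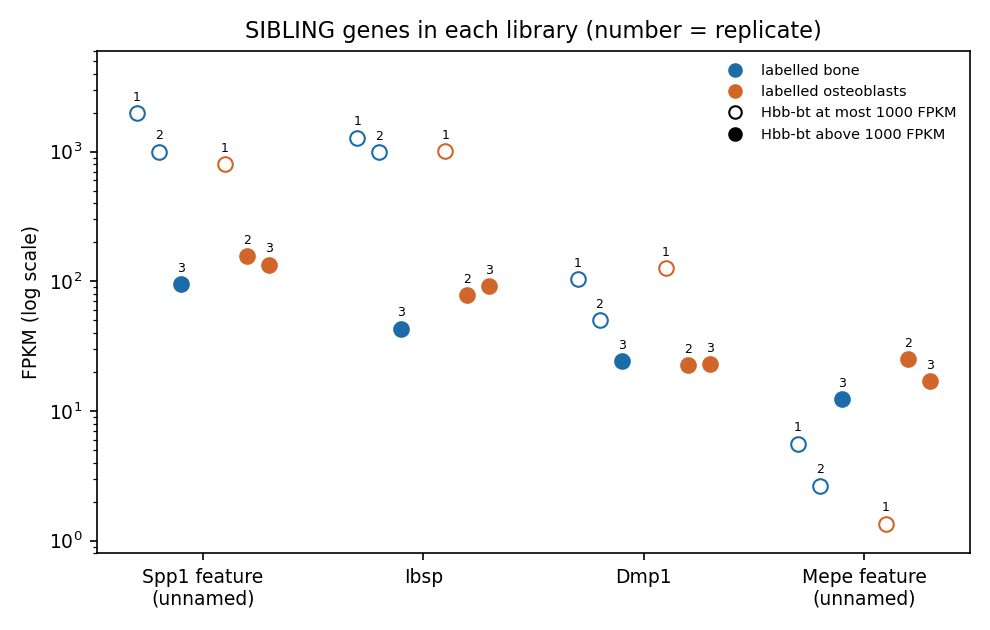
FPKM of 4 SIBLING genes on a log axis, 1 point per library with its replicate number, blue for the label bone and orange for the label osteoblasts, and filled where *Hbb-bt* is above 1000 FPKM. *Ibsp*, the *Spp1* feature and *Dmp1* are higher in the 3 libraries with open points and the *Mepe* feature is higher in the 3 with filled points. *Dspp* is not drawn because 4 of its values are 0.

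The make-up of the family also differed between the libraries. FPKM is per length, so the members can be set side by side, although the *Mepe* feature, like that of *Spp1*, sums several transcripts, with a coverage per FPKM of 0.489 to 0.649 of the ratio of a row with a single transcript. The summed SIBLING level was 3356, 2034 and 174 FPKM in bone 1 to 3 and 1929, 281 and 265 FPKM in osteoblasts 1 to 3. *Ibsp* and the *Spp1* feature together made up 96.7, 97.4 and 79.0% of it in the libraries labelled bone and 93.4, 83.1 and 85.0% in those labelled osteoblasts. The share of *Dmp1* ranged from 2.46% in bone replicate 2 to 13.9% in bone replicate 3, and that of *Mepe* from 0.0702% in osteoblasts replicate 1 to 8.94% in osteoblasts replicate 2. The *Spp1* feature held 41.3 to 58.7% in each library, the narrowest relative range of the 4. These shares rest on FPKM, on which the ratio of the *Spp1* feature to *Ibsp* was 0.794 to 2.19. On coverage per Gb that ratio was 0.392 to 1.12, so the share of the feature is smaller on that scale.

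**Figure D2:**
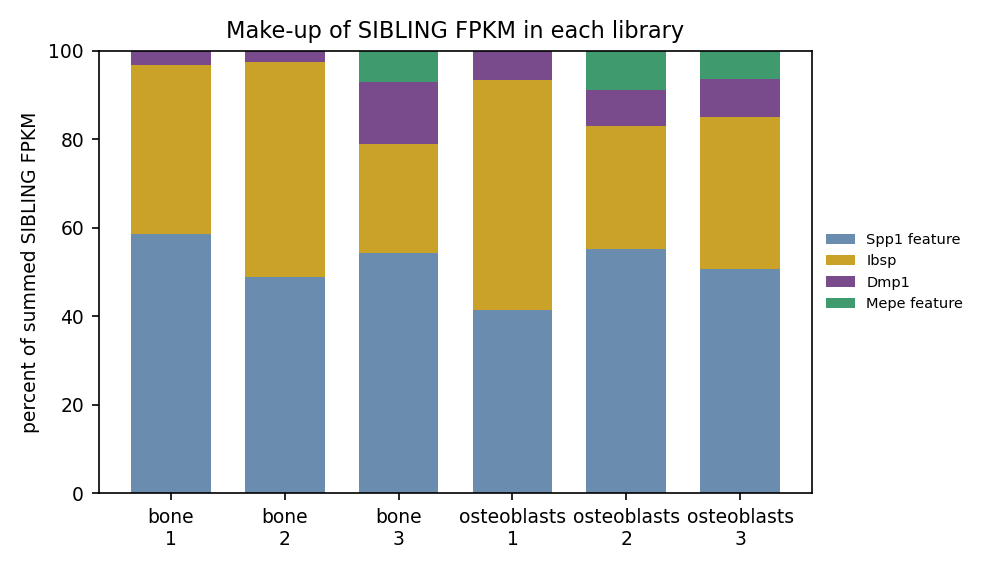
Share of each gene in the summed SIBLING FPKM of each library, in percent, stacked to 100. In bone replicate 3 and osteoblasts replicates 2 and 3 the shares of *Dmp1* and *Mepe* are larger, up to 13.9% and 8.94%.

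Ratios within a library do not depend on how the library was scaled. The ratio of *Dmp1* to *Ibsp* was 0.0813, 0.0508 and 0.563 in bone 1 to 3, and 0.126, 0.287 and 0.250 in osteoblasts 1 to 3. For *Mepe* to *Ibsp* the values were 0.00437, 0.00268 and 0.285 in the libraries labelled bone and 0.00135, 0.321 and 0.185 in those labelled osteoblasts. *Mepe* to *Dmp1*, a ratio of the pair known from osteocytes, was 0.0538, 0.0529 and 0.506 and then 0.0107, 1.12 and 0.740. All 3 ratios were highest in the libraries rich in *Hbb-bt*. On coverage per Gb they were highest in the same libraries, but the level of *Mepe* to *Dmp1* in osteoblasts replicate 2 was 0.551 in place of 1.12. The ratio of the *Spp1* feature to *Ibsp* depended on the scale. On FPKM it ran from 0.794 in osteoblasts replicate 1 to 2.19 in bone replicate 3, with overlap. On coverage per Gb it was 0.591, 0.483 and 1.12 in bone 1 to 3 and 0.392, 0.999 and 0.738 in osteoblasts 1 to 3, so that the libraries rich in *Hbb-bt* were the 3 highest.

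**Figure D3:**
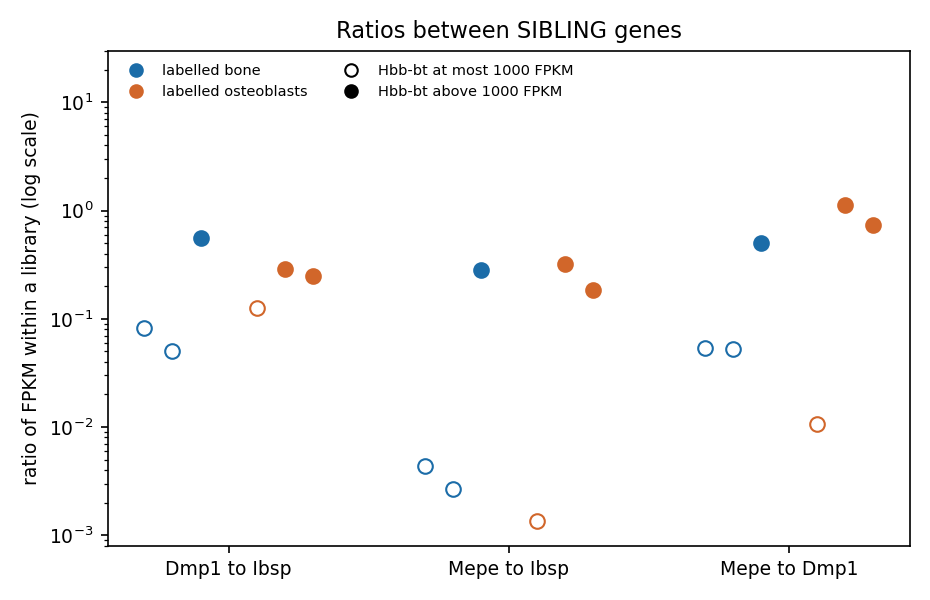
Ratios of FPKM between SIBLING genes within each library on a log axis, with colours and fill as in the plot of members by library. The filled points lie above the open ones for each ratio, from 0.250 upward for *Dmp1* to *Ibsp*.

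Whether the labels separate the family was tested on the scale of log2(FPKM + 1), osteoblasts minus bone. The difference was -0.97 for *Ibsp* (95% limma interval -4.16 to 2.21, exact permutation test, two-sided, p = 0.9) and -1.16 for the *Spp1* feature (-3.80 to 1.49, exact permutation p = 0.6). For *Dmp1* it was -0.31 (-2.13 to 1.51, exact permutation p = 0.8) and for *Mepe* 0.60 (-1.42 to 2.61, exact permutation p = 0.7). With 3 libraries against 3 the exact p cannot fall below 0.1. Each of these differences was smaller than the SD within either label, and the intervals still allow changes of several-fold. The limma adjusted p was 0.999 for each of the 4. limma called 0 of the 12114 rows tested (0%) at an adjusted p under 0.05, with 17 rows (0.14%) at an unadjusted p under 0.05. The sign for *Dmp1* depends on single libraries, and the difference became 0.21 without bone replicate 1, 0.10 without osteoblasts replicate 2 and 0.09 without osteoblasts replicate 3. That of *Mepe* became -0.073 without osteoblasts replicate 2. A fit with a replicate block called 0.404% of rows (0.38% higher and 0.0248% lower), none of them a SIBLING gene.

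Bone replicate 3 and osteoblasts replicate 1 stand apart from the other libraries of their label in the markers above, and each was left out in turn. The values that result rest mostly on the libraries labelled bone with almost no blood or muscle transcripts and those labelled osteoblasts that hold them. Without bone replicate 3 the difference of *Ibsp* was -2.53 and that of the *Spp1* feature -2.45. Without osteoblasts replicate 1 they were -2.16 and -1.98. None of the 4 members was called in either fit, and limma called 3 of 11892 rows (0.0252%) without bone replicate 3 and 359 of 12364 (2.9%) without osteoblasts replicate 1. The differences of the 3 ratios on the log2 scale were 0.66 for *Dmp1* to *Ibsp* (exact permutation p = 0.6), 1.53 for *Mepe* to *Ibsp* (p = 0.9 by the same exact test) and 0.88 for *Mepe* to *Dmp1* (exact permutation p = 0.8), each 0.9 after adjustment over the 3.

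**Figure D4:**
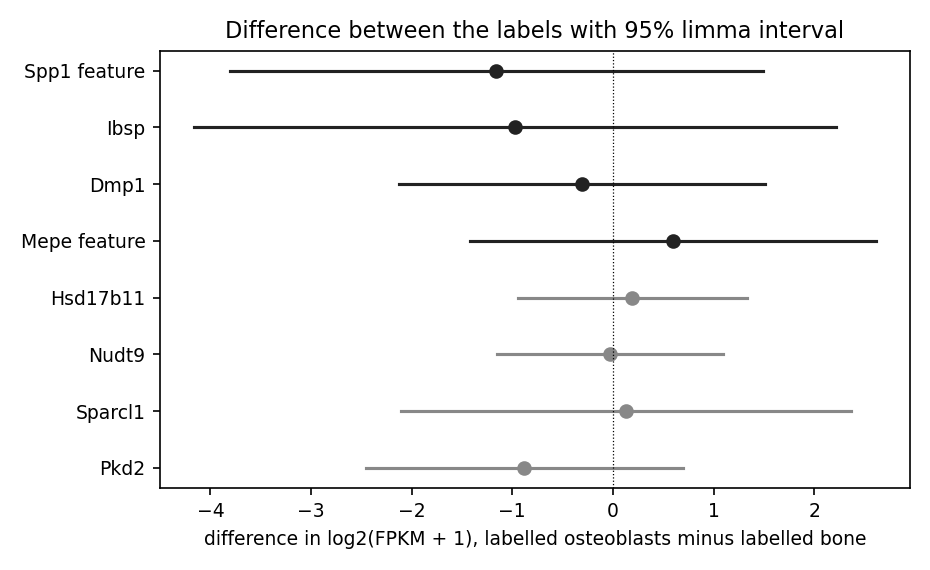
Difference in log2(FPKM + 1) between the labels, osteoblasts minus bone, with the 95% interval of limma, for 4 SIBLING genes in black and 4 neighbours on Chr. 5 in grey. Every interval includes 0.

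No SIBLING gene was parted by label, as 0.438% of the 12114 rows were with bone higher and 0.479% with osteoblasts higher. The parting seen above was common by comparison. The 3 libraries highest in *Ibsp* were the 3 highest, with no overlap, for 16.9% of rows and the 3 lowest for 38.4%, so *Ibsp*, *Dmp1* and the *Spp1* feature belong to the smaller and *Mepe* to the larger of these sets. FPKM depends on everything else in the library, and in bulk tissue fewer cells of a type and less RNA per cell cannot be told apart.

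The neighbours of the cluster did not follow one pattern. *Pkd2*, next to *Spp1*, measured 20.0, 10.5 and 2.75 FPKM in bone 1 to 3 and 9.32, 2.88 and 2.63 FPKM in osteoblasts 1 to 3, with the same 3 libraries high as for the *Spp1* feature that overlaps it. *Sparcl1*, which encodes a SPARC-like matricellular protein on the *Dspp* side, measured 7.49, 0.547 and 8.54 FPKM and then 0.224, 11.1 and 10.1 FPKM, lowest in the libraries with little *Hbb-bt*. *Nudt9*, an ADP-ribose hydrolase gene, stayed between 15.1 and 35.5 FPKM and *Hsd17b11*, a steroid dehydrogenase gene, between 4.66 and 13.6 FPKM, with overlapping libraries. *Hsd17b13* was listed at 0 in all 6. None of the 4 tested was called by limma, and the median difference between the labels was 0.05, against 0.12 over all rows.

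SIBLING proteins are phosphorylated by Fam20C in the secretory pathway and cut by proteases. *Fam20c*, *Bmp1* (the protease that cleaves dentin matrix protein) and *Mmp2* have no named row. Of the 15 genes listed 9 were tested, and limma called 0 higher and 0 lower. The median difference between the labels was -0.20. *Ctsb*, the gene of the lysosomal protease cathepsin B, measured 993, 496 and 171 FPKM in bone 1 to 3 and 503, 198 and 179 FPKM in osteoblasts 1 to 3. *Mmp9*, a gelatinase of osteoclasts and neutrophils, had the opposite order, 64.8, 2.96 and 263 FPKM and then 30.2, 257 and 308 FPKM. *Pcolce*, an enhancer of procollagen cleavage, ranged from 41.0 to 150 FPKM and *Mmp14*, a membrane-bound metalloproteinase, from 16.5 to 66.0 FPKM. In all, 4 of the 9 had their 3 highest values in the libraries high in *Ibsp*, 2 had their 3 lowest there and 3 overlapped. Over all rows tested the shares were 16.9% with the 3 highest there and 38.4% with the 3 lowest.

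The receptors of the Arg-Gly-Asp motif differed from each other. Of 11 genes, the integrin chains and *Cd44*, another osteopontin receptor, 8 were tested and limma called 0 in either direction, with a median difference of -0.40 between the labels. *Itgb5* measured 213, 111 and 34.5 FPKM in the libraries labelled bone and 112, 32.7 and 30.1 FPKM in those labelled osteoblasts, and *Itgb1*, the common beta chain, 196, 110 and 19.0 and then 107, 27.2 and 28.9 FPKM. *Itgb3*, the beta chain through which osteoclasts bind osteopontin and bone sialoprotein, went the other way, with 9.97, 2.62 and 69.3 FPKM and then 6.79, 52.6 and 73.8 FPKM. *Cd44* overlapped, at 43.5 to 79.5 FPKM. The libraries high in *Ibsp* were the 3 highest for 5 of the 8 and the 3 lowest for 2, beside 16.9% and 38.4% of all rows.

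Among 11 genes of mineralization and phosphate handling 7 were tested, with 0 called and a median difference of -0.29. *Phospho1* has no named row. *Mgp*, the gene of a mineralization inhibitor, measured 765, 307 and 106 FPKM in bone 1 to 3 and 281, 107 and 108 FPKM in osteoblasts 1 to 3. *Alpl*, tissue-nonspecific alkaline phosphatase, ranged from 66.0 to 205 FPKM, *Ank*, a pyrophosphate transporter gene, from 23.1 to 61.5 FPKM, and *Slc20a1*, a phosphate transporter gene, from 9.81 to 38.2 FPKM. The libraries high in *Ibsp* were the 3 highest for 4 of the 7 and the 3 lowest for 1, beside 16.9% and 38.4% of all rows. Of the 7, 2 overlapped.

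Transcription regulators of SIBLING genes were the last group. Of 10 listed 9 were tested and 0 called, with a median difference of 0.27 between the labels. *Atf4* was at 29.7 to 66.1 FPKM, *Sp7* (osterix) at 12.5 to 38.7 FPKM, *Cbfb*, the partner of the Runx proteins, at 9.20 to 25.8 FPKM, and *Runx2*, the regulator of osteoblast fate, at 5.78 to 15.1 FPKM. Of the 9, 1 had its 3 highest values in the libraries high in *Ibsp* and 1 its 3 lowest, beside 16.9% and 38.4% of all rows, and 7 overlapped.

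**Figure D5:**
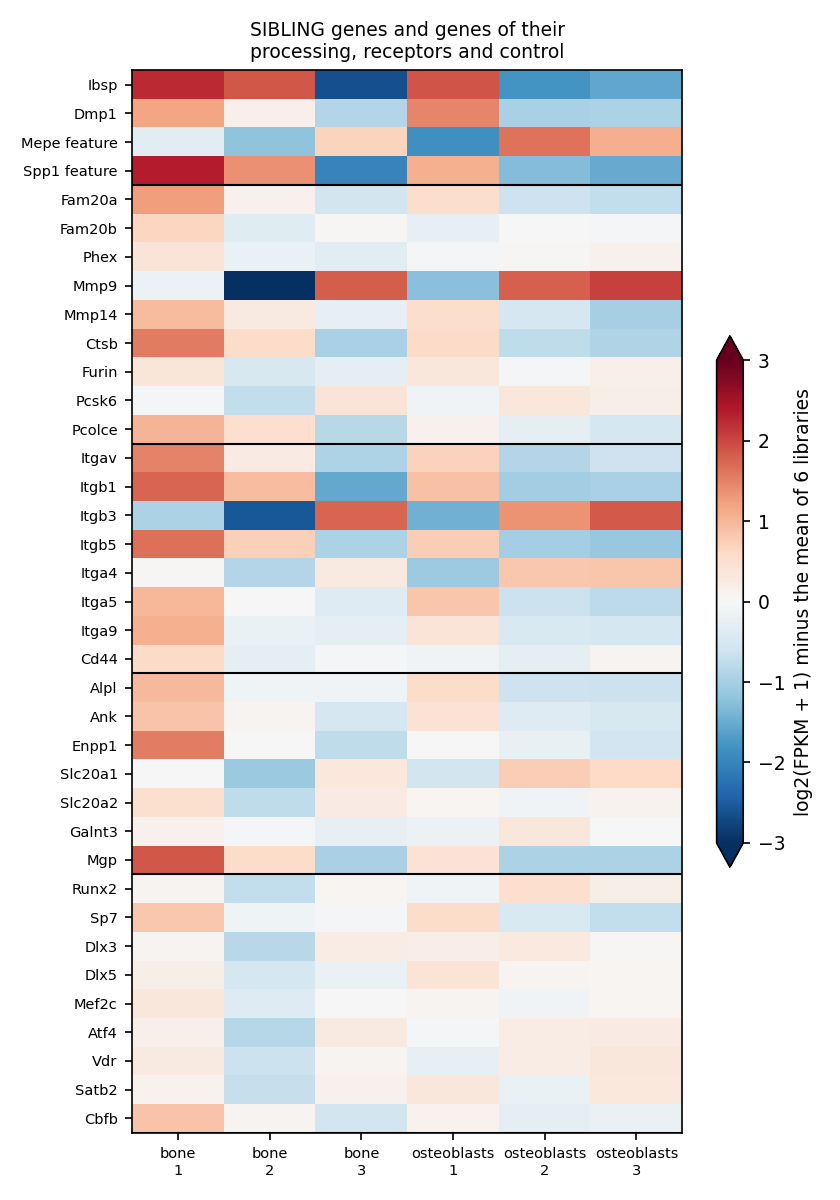
log2(FPKM + 1) of each gene minus its mean over the 6 libraries, red above and blue below, for the 4 expressed SIBLING genes and, below the lines, the tested genes for processing, receptors, mineralization and transcription. Colours end at 3 on either side. *Ibsp*, *Dmp1* and the *Spp1* feature share their red columns with *Itgb1*, *Itgb5* and *Ctsb*, and the *Mepe* feature with *Itgb3* and *Mmp9*.

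Lists of genes of bone cells, which include *Ibsp*, *Dmp1* and *Mepe* themselves, were set beside the family. Of 10 osteoblast markers 9 were tested, with 0 called and a median difference of -0.23. The collagen gene *Col1a1* ranged from 1499 to 3332 FPKM, *Col1a2* from 2001 to 3981 FPKM and *Sparc* from 989 to 1680 FPKM, so none of these spanned the 29.6-fold range of *Ibsp*. *Bglap2*, an osteocalcin gene, was highest in the libraries rich in *Hbb-bt*, the only 1 of the 9 with this pattern. It measured 264, 383 and 1959 FPKM in bone 1 to 3 and 513, 1889 and 1641 FPKM in osteoblasts 1 to 3. Another 3, *Ibsp* itself among them, had their 3 highest values in the libraries high in *Ibsp*, and 5 overlapped. Over all rows 16.9% had their 3 highest and 38.4% their 3 lowest there. Of 10 osteocyte markers 9 were tested, with 0 called and a median difference of 0.10. Of these 9, 1 (*Dmp1*) had its 3 highest values in the libraries high in *Ibsp*. There 4 (*Mepe*, *Sost*, *Dkk1* and *Hyal1*) had their 3 lowest, and 4 overlapped, which is near the 16.9% and 38.4% of all rows. *Dmp1* and *Mepe* are members counted again here. *Sost* and *Dkk1* reached the mean of 1 FPKM only through the libraries where they were high. *Sost*, the sclerostin gene, named here with *Dkk1* and *Hyal1* after their values were seen, was 15.8 to 22.7 FPKM where *Mepe* was high and 0.0661 to 0.198 FPKM where it was low.

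Cells other than osteoblasts make osteopontin, and their markers also differed among the libraries. The macrophage markers, 6 of 6 tested, were each highest in the 3 libraries high in the *Spp1* feature, as were 16.9% of all rows. The sums of these markers were 5091 to 9367 FPKM there and 1584 to 1940 FPKM in the other 3. *Lyz2*, the most abundant, measured 7332, 4330 and 1280 FPKM in bone 1 to 3 and 3955, 1546 and 1596 FPKM in osteoblasts 1 to 3. Osteoclast markers, 7 of 8 with a named row, summed to 47.1 to 263 FPKM in the former libraries and 449 to 502 FPKM in the latter. *Acp5* (tartrate-resistant acid phosphatase) carried that gap, and without it the sums overlapped, at 152 FPKM in bone replicate 1 and 125 FPKM in bone replicate 3. Of the 5 osteoclast markers tested, 2 had their 3 lowest values in the former libraries, as did 38.4% of all rows, and 3 overlapped. Adipocyte markers summed to 51.6 to 350 and 260 to 309 FPKM, which overlap. The part of these cells, and of the blood, muscle and cartilage cells above, in the SIBLING levels was not tested.

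To find the transcripts most like each member, profiles of log2(FPKM + 1) were centred over the 6 libraries and compared by their root mean square (RMS) difference, as a description. The *Spp1* feature was the member nearest to *Ibsp* (0.51), *Dmp1* was 1.18 from *Ibsp*, and *Mepe* was 2.18 to 3.15 from the other 3. The 5 named genes nearest to *Ibsp* were *Grem1* (0.25), *Akr1b8* (0.28), *F13a1* (0.29), *Cdkn2b* (0.32) and *Cyp1b1* (0.34). *Grem1*, the gene of the BMP antagonist gremlin, measured 37.5, 22.0 and 0.536 FPKM in bone 1 to 3 and 20.0, 1.41 and 1.64 FPKM in osteoblasts 1 to 3. Nearest to the *Spp1* feature were *Colec12* (0.16), *Ctss* (0.17), *Pla2g7* (0.17), *Fgf7* (0.20) and *Tlr13* (0.21). *Ctss*, the cathepsin S gene, measured 654, 404 and 41.5 FPKM and then 292, 72.4 and 51.1 FPKM. Of the 5 nearest to *Dmp1*, 4 were *Pdk4* (0.15), *Gdf15* (0.16), *Ston1* (0.17) and *Zmat3* (0.17), each with osteoblasts replicate 1 as the highest library. For *Mepe* they were *Gins1* (0.15), *Blm* (0.18), *Dfna5* (0.25), *Cks2* (0.25) and *Gmnn* (0.26). *Gins1*, a gene of the replicative helicase complex, measured 2.62, 0.825 and 7.31 FPKM in the libraries labelled bone and 0.529, 11.8 and 9.51 FPKM in those labelled osteoblasts.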

How the data were processed

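RNA from 3 libraries labelled bone and 3 labelled osteoblasts was sequenced by the authors as 75 bp paired-end reads (TruSeq v2), aligned to GRCm38 with HISAT2 2.0.5 and assembled with StringTie 1.3.3 (SAMtools 1.7). The authors deposited FPKM, TPM and coverage for each of 93285 features, of which 48815 are named, and no counts. Depth was computed from the ratio of coverage to FPKM and is 13565300 to 22584000 read pairs, so that 3 pairs on 1 kb give 0.133 to 0.221 FPKM, counting error only.

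FPKM was summed by gene name. *Spp1* and *Mepe* have no named row and were read from the unnamed features over them. Rows with a mean of at least 1 FPKM (12114) were compared as log2(FPKM + 1), which understates changes of low genes, with limma 3.58.1 in R 4.3.3 (lmFit, eBayes with trend, Benjamini-Hochberg adjusted p under 0.05). Single values were compared by exact two-sided permutation tests over the 6 libraries (SciPy 1.17.1). Ratios used FPKM + 0.01. On simulated data with an SD of 0.3 for this comparison (12114 rows) limma recovered 200 of 200 changed genes with 8 other calls. The median SD of the real rows was 0.59, so the recovery on simulated data does not give the power in these libraries.

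Named are the members, their neighbours, up to 4 genes with the highest mean FPKM of each list, and the 5 nearest profiles of each member, of which 1 is not reported here. Genes named outside this rule are marked in the text. Members and lists were chosen with earlier results of these data known. Alternatives were the pseudocount, filter, scaling, TPM, coverage, limma without trend, a replicate block and leaving out each library. Coordinates and promoters are from RefSeq on GRCm38.p6, in which 4 of the 5 members have a promoter entry.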

Additional observations from a re-analysis of the deposited data

How the results depend on the processing

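Over the 9 results, 94 of 108 alternatives kept the direction and the side of the threshold, or a count within 1.5 times, and 11 reversed a direction. For *Dspp* and the ratios the exact p cannot fall below 0.1, so there a kept result means only an unchanged sign. The sizes of the differences were not part of this count. Scaling to the sum of named genes and coverage per Gb in place of FPKM were chosen after seeing the data. With the replicate block limma called 49 rows in place of 0, and no SIBLING gene. Same-numbered libraries had correlations of 0.84, -0.75 and 0.83, and 3 of the 6 libraries correlated best with their own number. These correlations follow the *Hbb-bt* state of the libraries, so they cannot show whether a number marks a shared mouse. Because the labels do not tie a library to a mouse, the numbers were not read as pairs. Leaving out 1 library gave 0 to 359 called rows, with 3 without bone replicate 3 and 359 without osteoblasts replicate 1, and 0 without any other library. The log2 differences between the labels then ranged from -2.53 to -0.10 for *Ibsp*, from -2.45 to -0.27 for the *Spp1* feature, from -1.12 to 0.21 for *Dmp1*, from -0.073 to 1.66 for *Mepe* and from -0.0065 to 0.0080 for *Dspp*. *Dmp1* turned positive without bone replicate 1 or osteoblasts replicate 2 or 3, and *Mepe* turned negative without osteoblasts replicate 2. *Dspp* turned negative with TPM (-0.00043) and without bone replicate 2 or 3 or osteoblasts replicate 1, at levels of 1 read pair. The difference between the labels in the log2 ratio of *Dmp1* to *Ibsp* ranged from -0.036 (without bone replicate 2) to 1.699, that of *Mepe* to *Ibsp* from 0.08 to 4.03 and that of *Mepe* to *Dmp1* from -0.34 (without osteoblasts replicate 2) to 3.01, and it was -0.043 without osteoblasts replicate 3. Over all alternatives the limma adjusted p was 0.186 to 1.00 for *Ibsp*, 0.614 to 1.00 for *Dmp1*, 0.194 to 1.00 for *Mepe* and 0.168 to 1.00 for the *Spp1* feature. The cause of these shifts was not tested. Depth limits *Dspp* alone among the members.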
